A study of Mus musculus with 24 samples.

Results

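Skin of mouse embryos can carry striated muscle, and the transcripts described here are those of 40 genes of skeletal muscle, chosen by name for their roles in the muscle fiber and in the cells that form it. All 40 were found among the 54087 gene symbols of the count table, and all 40 passed the filter on low counts that left 17094 genes for testing. The samples were dorsal skin at embryonic day 18.5 (E18.5) of 3 genotypes of one mouse line. WT embryos were Dsg1+/+, HET embryos were Dsg1+/- and KO embryos were Dsg1-/-, where the deleted allele lacks the whole tandem Dsg1c, Dsg1a and Dsg1b gene cluster. The allele was made by CRISPR/Cas9 editing in C57BL/6J zygotes, descends from 1 founder and was then backcrossed, and no group received a treatment. Dsg1 (desmoglein 1) is a cadherin of the desmosomes of the upper epidermis. It is deleted in every cell of the KO embryo and not in skin alone.

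Skeletal muscle fibers form when myoblasts, directed by a small family of basic helix-loop-helix transcription factors, fuse and fill with sarcomeres, in which myosin filaments pull on actin filaments under the control of troponin and calcium. Each part of the sarcomere is encoded by several genes that replace each other as the fiber matures, so that fetal muscle makes embryonic and neonatal myosin heavy chains before the adult fast and slow ones. In the mouse trunk a thin sheet of striated muscle, the panniculus carnosus, is attached to the underside of the skin, and deeper body wall muscle can come away with it.

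The 24 libraries (8 per genotype) held 8976020 to 20964721 counts. Their titles carry a number in 1 of 2 formats, called series 1 (9 libraries) and series 2 (15 libraries) here, and libraries with the same number and genotype were summed into 15 columns, 5 replicates per genotype, with 15279289 to 33681853 counts. The summed counts of the 3 Dsg1 genes ranged from 723 to 933 CPM (counts per mega counts of the library size after TMM scaling) in WT, from 371 to 492 in HET and from 0.103 to 0.902 in KO. The labels do not say whether the numbers are separate embryos, so p-values measure the spread between these columns. For 1 of the 9 numbers with 2 libraries, WT replicate 2, the libraries did not match: Xist was at 0.264 CPM in one and 564 in the other, and 4 Y-linked genes together at 325 and 0.154 CPM. The summed level, the medians, the relations that passed their test and the main members are given below also without that column.

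Muscle transcripts were abundant in every column. Together the 40 genes took 1.37% to 3.33% of all counts. In WT their summed level was 26422, 32541, 27557, 19799 and 20596 CPM in replicates 1 to 5, with a mean of 25383 ± 5271 (SD, n = 5). HET columns held 30619, 24912, 23142, 21136 and 24544 CPM, with a mean of 24871 ± 3539 (SD, n = 5). KO columns held 27943, 14544, 28880, 18840 and 28120 CPM, with a mean of 23665 ± 6554 (SD, n = 5). The 3 ranges overlap, and both the highest column (WT replicate 2) and the lowest (KO replicate 2) differ from the others of their own genotype by more than the genotype means differ. Leaving out WT replicate 2 put the WT mean at 23594 CPM. In bulk skin, fewer muscle cells and less of these transcripts per muscle cell cannot be told apart.

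**Figure D1:**
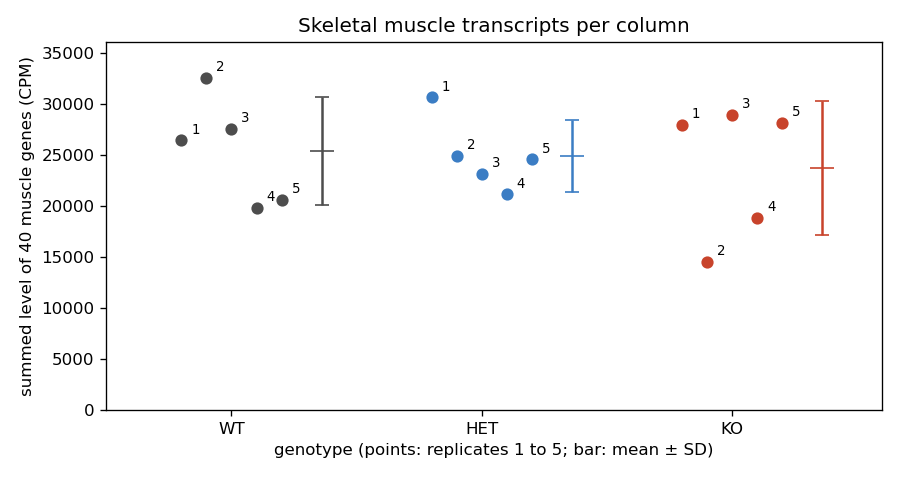
Summed level of the 40 muscle genes in CPM for each of the 15 columns (points, labelled by replicate) with the mean and SD of each genotype. The genotypes overlap, and KO has both the lowest column (14544 CPM) and 3 columns between 27943 and 28880 CPM.

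The libraries of one title number held nearly the same muscle level. Over the 8 title numbers whose libraries matched, the summed level in the series 2 library differed from that in the series 1 library by a median of 0.0020 and at most 0.0095 on the log2 scale. By contrast, 2 columns of the same genotype differed by a median of 0.34 (30 pairs). The labels do not say whether the libraries of one number are repeat runs of one RNA sample, so the first difference may hold sequencing error alone and sets no measure of biological spread. The discordant number, WT replicate 2, had 27194 CPM in one library and 36454 in the other, a difference of 0.42. The SD of the log2 summed level was 0.30 in WT, 0.20 in HET and 0.44 in KO (n = 5 each).

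**Figure D2:**
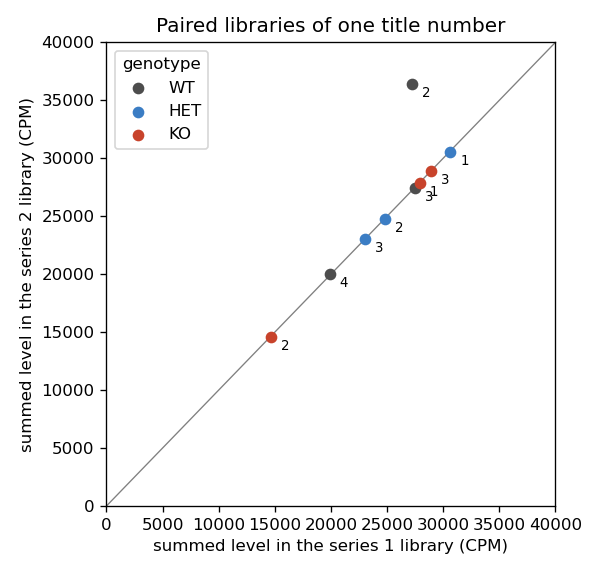
Summed level of the 40 muscle genes in the 2 libraries of each of 9 title numbers, series 1 on the x axis and series 2 on the y axis, both in CPM, with the line of equality. Points (labelled by replicate) lie on the line except WT replicate 2, which is at 27194 and 36454 CPM.

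In per-gene terms, the variation between replicates of these genes exceeded that of most genes. The biological coefficient of variation (the square root of the edgeR dispersion) had a median of 0.265 over the 40 members and 0.165 over all genes tested, and it was above the latter in 40 of 40 members. It ranged from 0.197 for Myf5 to 1.71 for Myl2. The median member was 2.57 times as high in its highest column as in its lowest.

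The genes varied largely together. Over the 780 pairs of members, the correlation of log2 levels across the 15 columns had a median r of 0.54, and 53.9% of pairs were above 0.5. The points share their libraries, and the range of total muscle RNA, so these values are descriptions. Acta1, the main actin of the skeletal sarcomere, followed the summed level of the other 39 members most closely (r = 0.96), then Des (r = 0.95), the intermediate filament that ties myofibrils together, and Pygm (r = 0.94), the glycogen phosphorylase of muscle. In all, 22 members were above an r of 0.8 and 9 were below 0.5. Those below 0.5 were Myh7, Myl2, Myl3, Myh2, Myh4, Actn3, Tnnc1, Tnnc2 and Tnnt1, and for Myh7 (r = -0.22), Myl2 (r = -0.04) and Myl3 (r = -0.02) the value was below 0. Other genes of fast or slow fibers, such as Tnnt3 (r = 0.91), Atp2a1 (r = 0.90) and Tnni1 (r = 0.74), did follow the sum. Of the 9, Tnnc2, Myh2, Myh4 and Myl2 had few counts in some columns.

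Genes outside the member list were also compared with the summed member level across the 15 columns. The 83 further muscle genes described below were left out of this ranking. Among the 14940 genes compared, the most alike was Dusp27 (r = 0.97, rho = 0.98). Next came Atp1b4 (r = 0.97), Camk2b (r = 0.97), Fhl1 (r = 0.96), Nes (r = 0.96), Hhatl (r = 0.96), Cacng6 (r = 0.96), Tpm2 (r = 0.95), Tmem182 (r = 0.95) and Klhl30 (r = 0.95). Among them Tpm2 encodes a tropomyosin of the thin filament, Fhl1 a LIM domain protein and Nes an intermediate filament protein of immature muscle.

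Myh8 (neonatal myosin heavy chain) was also set against 7 single genes, with permutation tests on 15 columns and Benjamini-Hochberg adjustment over the 7 relations. With Acta1, r was 0.85 (rho = 0.90, adjusted permutation p = 0.00021), and r was 0.78 without the 2 columns farthest from the median of Myh8, KO replicate 2 and HET replicate 1. Within series 1 (n = 9) r was 0.83 and within series 2 (n = 15) it was 0.86, but the 9 numbers of series 1 are all in series 2, so these are not independent samples. Without WT replicate 2, r was 0.83 (adjusted permutation p = 0.00119). For Pax7, the transcription factor of muscle stem cells, r was 0.70 (adjusted permutation p = 0.0116), with 0.71 in both series. Its rho of 0.60 did not pass 0.05 (adjusted permutation p = 0.0730). Without the same 2 columns r with Pax7 was 0.43, so that relation rests on them, and without WT replicate 2 it was 0.65 (adjusted permutation p = 0.0420). With Myog, which drives the last step of muscle differentiation, r was 0.47 (rho = 0.55, adjusted permutation p = 0.176). None of the genes of other cell types passed the threshold of 0.05: r was 0.19 with Col1a1 of fibroblasts, -0.08 with Krt14 of basal keratinocytes, -0.30 with Ucp1 of brown fat and 0.17 with Pecam1 of endothelium.

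The upstream sequences of 33 members (36 promoters) were found in RefSeq for GRCm38.p6, and the 250 bases before the start site were searched. CAGCTG, the E-box core that myogenic basic helix-loop-helix factors bind, is a palindrome, so it was read on both strands at once. It was present for 14 of 33 members (42.4%) and for 14.7% of all genes with a promoter of that length. CANNTG, the looser E-box that includes it, was present for 78.8% of members and 69.3% of all genes. A MEF2 box stood upstream of 12.1% of members and 3.4% of all genes, a CArG box upstream of 12.1% and 1.6% (both strands), and TATAAA on the sense strand upstream of 15.2% and 8.9%. Of these promoters, 4 are shown because their genes represent patterns described below: Acta1 follows total muscle, Myh8 is the main myosin, Myh4 is an adult myosin of the same cluster on chromosome 11, and Chrng had the largest negative fitted difference in KO. Capitals mark CAGCTG, the MEF2 box and the CArG box.
Acta1 promoter (chr8:123894776-123895025, minus strand): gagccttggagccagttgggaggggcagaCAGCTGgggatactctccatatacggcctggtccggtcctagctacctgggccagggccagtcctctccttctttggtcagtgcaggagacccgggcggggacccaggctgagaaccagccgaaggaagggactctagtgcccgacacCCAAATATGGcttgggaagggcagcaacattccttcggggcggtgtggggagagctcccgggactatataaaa
Myh8 promoter (chr11:67276874-67277123, plus strand): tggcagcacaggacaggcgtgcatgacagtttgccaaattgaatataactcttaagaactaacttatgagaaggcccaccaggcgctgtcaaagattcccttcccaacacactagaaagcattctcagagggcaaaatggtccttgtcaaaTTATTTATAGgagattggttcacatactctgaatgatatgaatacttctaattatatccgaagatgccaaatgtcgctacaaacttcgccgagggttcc
Myh4 promoter (chr11:67237562-67237811, plus strand): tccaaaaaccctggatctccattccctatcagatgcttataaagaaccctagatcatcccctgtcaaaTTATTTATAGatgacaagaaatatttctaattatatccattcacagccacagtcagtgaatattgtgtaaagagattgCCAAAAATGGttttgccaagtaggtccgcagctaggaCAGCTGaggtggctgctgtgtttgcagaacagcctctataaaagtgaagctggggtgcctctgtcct
Chrng promoter (chr1:87205561-87205810, plus strand): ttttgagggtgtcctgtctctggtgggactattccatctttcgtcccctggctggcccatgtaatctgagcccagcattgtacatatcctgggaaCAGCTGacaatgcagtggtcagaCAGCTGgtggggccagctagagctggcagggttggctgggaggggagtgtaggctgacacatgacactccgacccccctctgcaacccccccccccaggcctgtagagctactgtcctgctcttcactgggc
Myh8 and Myh4 hold the same 10 letters as MEF2 box, Myh4 and Acta1 each hold a CArG box, and Chrng holds CAGCTG at 2 places. A match is a description of these letters and not evidence of binding.

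The myosin heavy chains, the motors of the thick filament, were almost all of the developmental forms. Per coding length, Myh8 made up 60.5% to 79.0% and Myh3 (embryonic myosin heavy chain) 19.7% to 37.7% of the sum of the 6 myosin heavy chains. Myh8 stood at 2804, 3928, 2994, 2426 and 2000 CPM in WT, at 4238, 2552, 2069, 2692 and 2875 CPM in HET and at 4146, 1748, 3084, 2460 and 3394 CPM in KO. Its genotypes overlap and its fitted log2 fold change in KO vs WT was 0.07 (SE 0.23, adjusted p = 0.894 by the edgeR quasi-likelihood test), and 0.21 (adjusted p = 0.669) without WT replicate 2. Myh3 stood at 938, 1369, 1108, 1515 and 903 CPM in WT, at 1525, 876, 817, 926 and 1292 CPM in HET and at 1082, 442, 1645, 632 and 1265 CPM in KO. Again the groups overlap, with a fitted log2 fold change of -0.20 in KO vs WT (SE 0.30, adjusted p = 0.726, edgeR). As a percentage of Myh3 plus Myh8 per coding length, Myh3 was 29.5 ± 5.52 in WT, 27.4 ± 2.31 in HET and 24.6 ± 6.36 in KO (SD, n = 5 each).

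The slow and adult fast myosins were minor and uneven. Myh7, the slow myosin heavy chain, made up 0.13% to 2.37% of the sum, and Myh1, Myh2 and Myh4, the adult fast forms, together made up 0.20% to 1.06%. Sequence shared between these genes limits the split: 26.9% of the 50-base windows of the Myh2 transcript, 26.7% of Myh1, 22.2% of Myh7, 21.4% of Myh8, 18.9% of Myh4 and 4.8% of Myh3 occur in other genes, and how such reads were counted is not given in the sources used here.

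**Figure D3:**
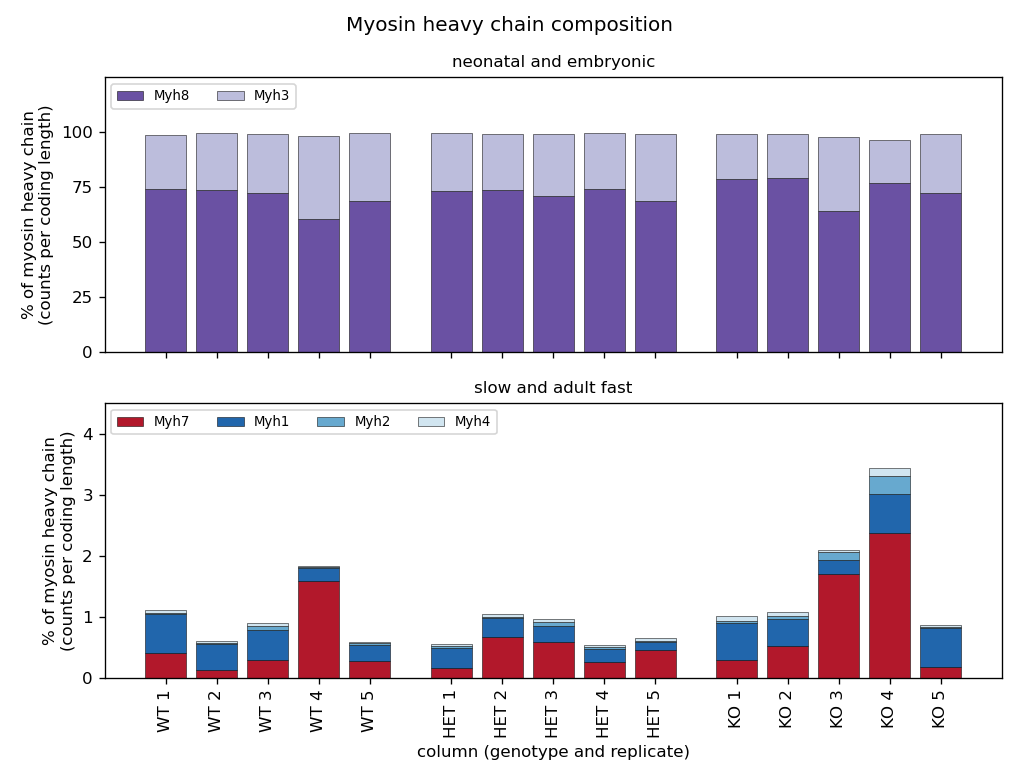
Share of each myosin heavy chain in the sum of 6, in percent of counts per coding length, for each of the 15 columns, with Myh8 and Myh3 in the upper panel and Myh7, Myh1, Myh2 and Myh4 in the lower panel. Myh8 and Myh3 fill nearly the whole of every column, and the slow and adult fast share is largest in KO replicate 4, KO replicate 3 and WT replicate 4.

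Myh7 was at 15.3, 6.90, 12.3, 63.5 and 8.06 CPM in WT replicates 1 to 5. In HET it was at 8.72, 22.9, 17.1, 9.11 and 18.7 CPM, and in KO at 15.3, 11.5, 82.3, 75.9 and 8.14 CPM. High values were thus found in WT replicate 4 and in KO replicates 3 and 4, while the other 12 columns lay between 6.90 and 22.9 CPM. The fitted log2 fold change in KO vs WT was 0.86 (SE 0.77, adjusted p = 0.546, edgeR), and 1.86 (adjusted p = 0.143) without WT replicate 4. It was 0.38 (adjusted p = 0.808) without KO replicate 3 and 0.46 (adjusted p = 0.831, edgeR) without KO replicate 4.

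Myl2, the regulatory light chain of slow muscle and of heart ventricle, was near 0 in most columns. In WT it was at 0.146, 0.203, 8.03, 0.0364 and 0.00 CPM, in HET at 0.0326, 0.930, 3.79, 1.11 and 0.239 CPM and in KO at 0.962, 0.664, 39.9, 37.0 and 0.190 CPM. The same KO replicates, 3 and 4, were high as for Myh7, but in WT the high column was replicate 3. The fitted log2 fold change in KO vs WT was 3.14 (95% interval -0.27 to 6.56, adjusted p = 0.292, edgeR) and 7.15 without WT replicate 3 (adjusted p = 0.189). It was 2.44 (adjusted p = 0.404) without KO replicate 3 and 2.55 (adjusted p = 0.505, edgeR) without KO replicate 4.

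Myl3, the essential light chain of slow muscle and ventricle, was at 36.1 and 30.1 CPM in KO replicates 3 and 4 and at 6.60 to 21.8 CPM in the other 13 columns. Of the 8 heart markers, Myh6, Nppa and Nppb stayed below 1 CPM in all 15 columns. The others did not: the highest column was at 1.005 CPM for Tnni3, 1.71 for Mybpc3, 2.40 for Ryr2 and 4.83 for Myl7. The summed level of the 8 was 90.2 to 109 CPM in WT, 71.8 to 109 in HET and 50.97 to 102 in KO. Most of that sum was Tnnt2 (44.4 to 103 CPM), which fetal skeletal muscle also makes.

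Myh2, the fast oxidative (type 2A) myosin heavy chain, had the smallest adjusted p of the 40 members in KO vs WT. It was at 0.679, 1.39, 2.34, 0.728 and 0.604 CPM in WT, at 1.17, 0.893, 1.69, 0.846 and 0.670 CPM in HET and at 1.74, 0.996, 6.55, 9.25 and 0.905 CPM in KO. Only KO replicates 3 and 4 lay above the WT range, and the other 3 KO columns lay within it. The fitted log2 fold change was 1.70 in KO vs WT (SE 0.62, unadjusted p = 0.0152, adjusted p = 0.168) and 1.84 in KO vs HET (SE 0.63, adjusted p = 0.197, edgeR). Without WT replicate 2 the former was 1.78 (adjusted p = 0.273). Without KO replicate 4 they were 1.10 (adjusted p = 0.394) and 1.24 (adjusted p = 0.394). Without KO replicate 5 they were 1.95 (adjusted p = 0.0741) and 2.09 (adjusted p = 0.0875), past both thresholds.

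Myh1 (type 2X) and Myh4 (type 2B) did not share the pattern of Myh2. Myh1 ranged from 7.81 to 23.9 CPM in WT, from 6.08 to 19.9 in HET and from 9.92 to 32.2 in KO, where replicates 1 and 5 were highest. For Myh4 the ranges were 0.604 to 2.18, 1.63 to 1.87 and 1.24 to 4.30 CPM, with KO replicates 1 and 4 highest. Actn3, the alpha-actinin of fast fibers, was also high in KO replicates 1 and 4, at 143 and 116 CPM, and low in WT replicates 4 and 5, at 15.1 and 16.8 CPM, with 42.2 to 78.6 CPM in the other 11 columns. Its fitted log2 fold change in KO vs WT was 0.88 (95% interval -0.11 to 1.86, adjusted p = 0.306, edgeR).

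Markers of other tissues were also high in some of these columns. The brown fat sum (7 genes) was 2810 CPM in KO replicate 4, 1046 in HET replicate 3, 173 in WT replicate 3 and 68.0 in KO replicate 3, against 34.9 to 60.0 CPM in the other 11 columns. Those are the same 4 columns that were highest for Myl2, although KO replicate 3 stood little above the rest in brown fat. WT replicate 4, high for Myh7, had the lowest brown fat sum, and KO replicate 1, high for Actn3, was at 44.5 CPM. Ucp1, the uncoupling protein of brown fat, was at 1461 CPM in KO replicate 4, 377 in HET replicate 3 and 37.5 in WT replicate 3, and at 0.146 to 2.42 CPM in the other 12 columns, KO replicate 3 among them (1.53 CPM). Cidea, a lipid droplet gene of brown fat, was at 810, 400 and 55.4 CPM there, at 14.7 in KO replicate 3 and at 4.23 to 10.3 CPM elsewhere. White fat sums (6 genes) were highest in KO replicate 4 and HET replicate 3, at 4894 and 3671 CPM against 317 to 1461 in the other columns. KO replicate 4 also had the highest smooth muscle sum (7 genes), 646 CPM against 215 to 418 in the other columns, with Actg2 at 112 CPM against 3.98 to 10.9, and the lowest dermal fibroblast sum (7 genes), 14882 CPM against 20158 to 36936. Smtn alone of the smooth muscle list was not highest in KO replicate 4, at 71.0 CPM within a range of 56.25 to 111. KO replicate 3 had the highest erythroid sum (9032 CPM). KO replicate 2, the column lowest in muscle, had the highest keratinocyte sum (6 genes), 102908 CPM against 56625 to 80005. Krt1, Krt10 and Lor were highest in that column, but Krt14, Krt5 and Trp63 were not. Krt14 was at 2455 CPM there, within a range of 1816 to 2936 over all columns. The part of these tissues in the muscle values was not tested. Leaving out KO replicate 4 and HET replicate 3 together left 0 members called in each comparison, with a smallest adjusted p of 0.340 (Chrng) in KO vs WT.

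**Figure D4:**
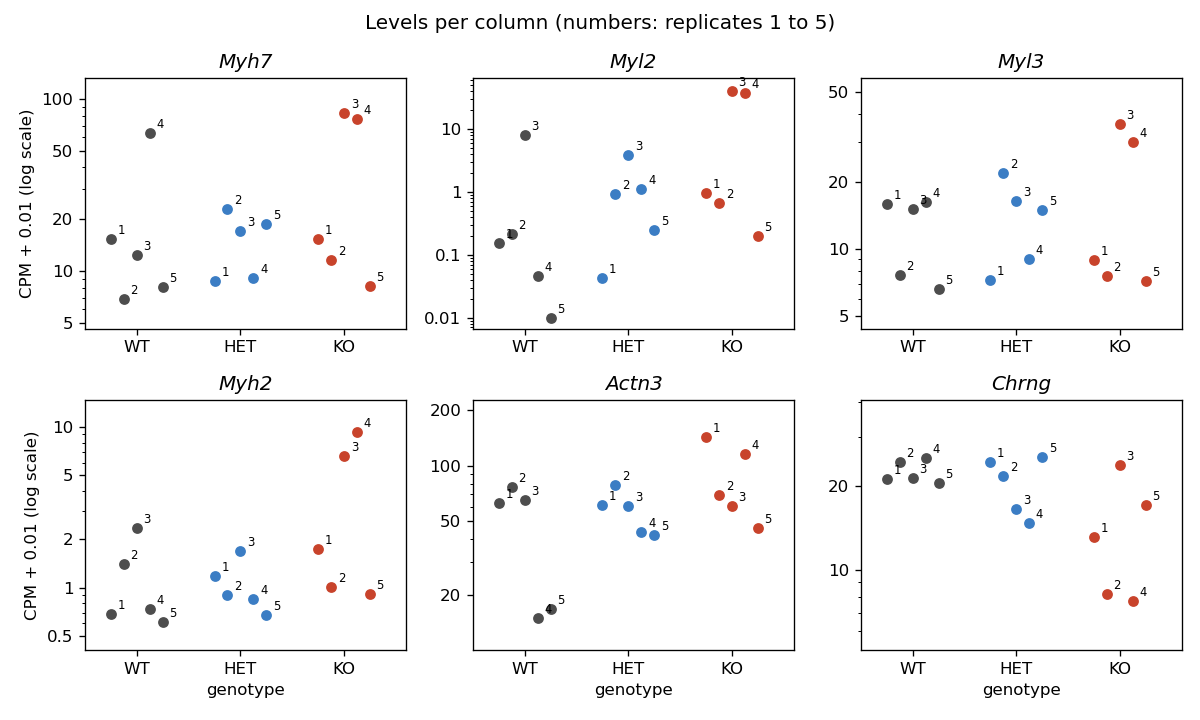
Levels of Myh7, Myl2, Myl3, Myh2, Actn3 and Chrng per column, as CPM + 0.01 on a log axis, by genotype, with points labelled by replicate. KO replicates 3 and 4 are highest for Myh7, Myl2, Myl3 and Myh2, KO replicates 1 and 4 for Actn3, and KO replicates 2 and 4 are lowest for Chrng.

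The question the genotypes pose for these genes is whether loss of Dsg1 goes with a different level of muscle transcripts in skin. A gene was called where its adjusted p was at most 0.1 and its log2 fold change was at least 1 in either direction. By the edgeR quasi-likelihood test, 0 of 40 members were called in KO vs WT, where 0.322% of all 17094 genes were called. In HET vs WT 0 members were called (0.0% of all genes), and in KO vs HET 0 were called (0.181% of all genes). Before adjustment, p was below 0.05 for 4 members in KO vs WT (19.3% of all genes), 0 in HET vs WT (1.58%) and 4 in KO vs HET (16.0%). The former were Myh2, Chrng, Myf5 and Myod1, and the latter Myh2, Myh1, Myl2 and Chrng. With limma-voom 0 members were called in each comparison, where 0.62% of all genes were called in KO vs WT, 0.0% in HET vs WT and 0.351% in KO vs HET. With DESeq2 1 member, Myh2, was called higher in KO vs WT (1.14% of all genes called) and in KO vs HET (0.772%), and 0 in HET vs WT (0.0%). No member had 2 genotypes without overlap in CPM: 0 of 40 in KO vs WT (3.37% of all genes), 0 in HET vs WT (0.374%) and 0 in KO vs HET (2.25%).

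The fitted differences were mostly small. The median log2 fold change over the 40 members was -0.12 in KO vs WT, -0.05 in HET vs WT and -0.10 in KO vs HET, beside -0.01, 0.00 and -0.00 over all genes tested. Values below 0 were found for 26 of 40 members in KO vs WT (65.0%, beside 51.4% of all genes), 25 in HET vs WT (62.5%, beside 49.1%) and 27 in KO vs HET (67.5%, beside 50.7%). In KO vs WT 38 members had values between -1 and 1, the other 2 being Myh2 and Myl2. The 95% interval lay wholly between -1 and 1 for 29 members in KO vs WT, 32 in HET vs WT and 32 in KO vs HET. Without WT replicate 2 the median was -0.03 in KO vs WT and 0.03 in HET vs WT, and without KO replicate 2 it was -0.00 in KO vs WT and 0.03 in KO vs HET. KO vs WT and HET vs WT share the WT columns, and KO vs HET shares columns with both.

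**Figure D5:**
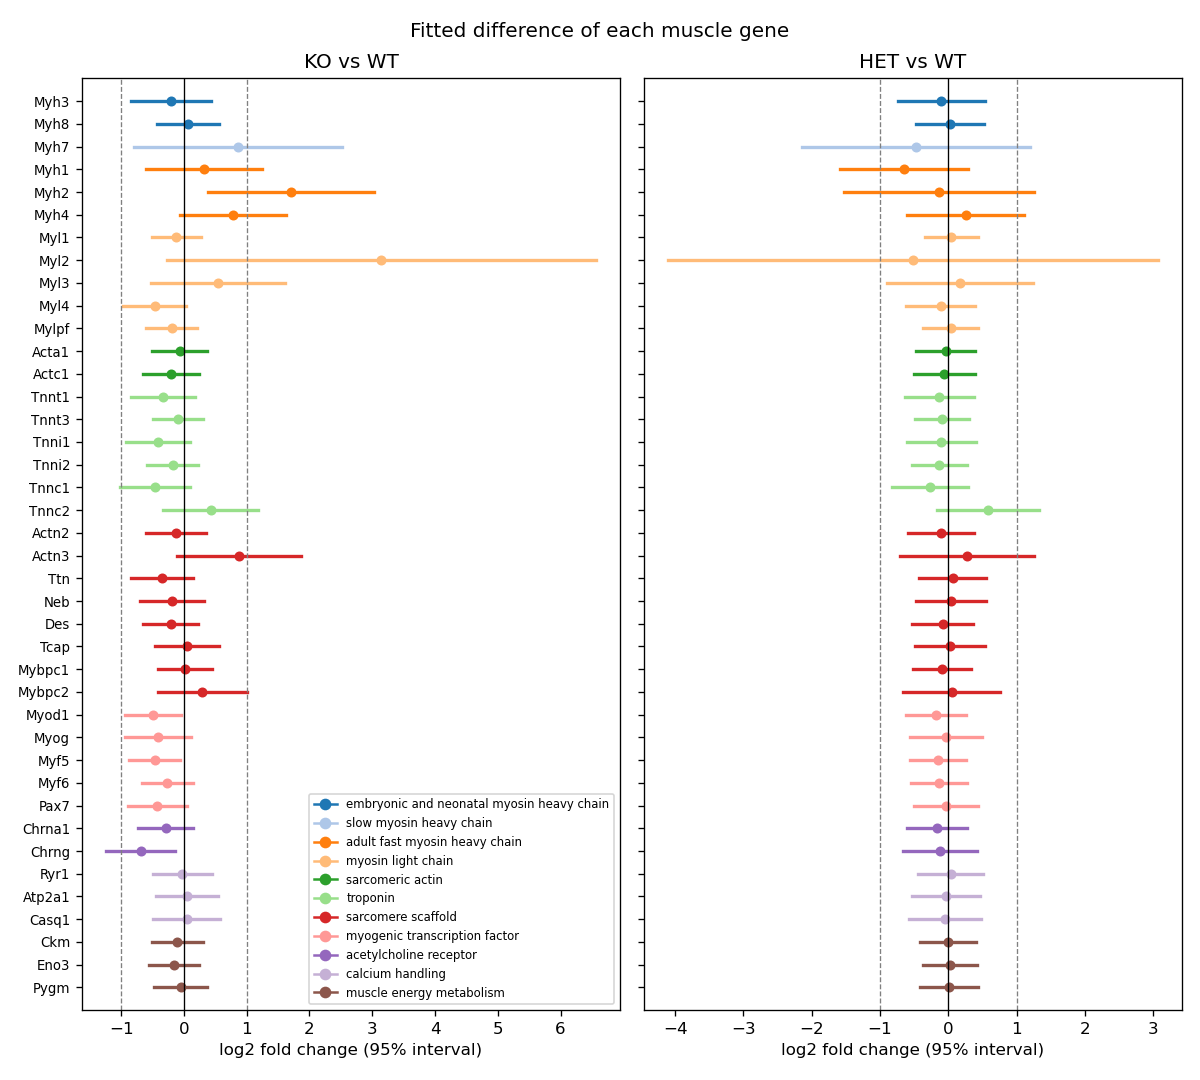
Fitted log2 fold change of each of the 40 members with its 95% interval (lines), KO vs WT on the left and HET vs WT on the right, colored by role, with dashed lines at -1 and 1. Myh2 and Myl2 alone have estimates beyond 1, both in KO vs WT.

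All 5 transcription factors of the muscle lineage had fitted values below 0 in KO vs WT, HET vs WT and KO vs HET. Of all genes, 51.4%, 49.1% and 50.7% were below 0. By edgeR 0 of the 5 were called, beside 0.322%, 0.0% and 0.181% of all genes. Myod1, Myf5, Myog and Myf6 are the myogenic basic helix-loop-helix factors, and Pax7 marks muscle stem cells. Their fitted log2 fold changes in KO vs WT lay between -0.49 and -0.26, in HET vs WT between -0.18 and -0.03 and in KO vs HET between -0.38 and -0.13. Myod1 was at 15.4, 20.6, 17.2, 16.1 and 17.4 CPM in WT, at 20.5, 13.9, 13.4, 11.8 and 16.8 CPM in HET and at 14.1, 6.82, 17.0, 8.94 and 14.7 CPM in KO. KO replicates 2 and 4 were lowest, and these were also the columns with the lowest summed muscle level in KO. Its fitted log2 fold change in KO vs WT was -0.49 (SE 0.21, unadjusted p = 0.0324, adjusted p = 0.221, edgeR), and -0.42 (adjusted p = 0.384) without WT replicate 2.

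Myf5, made in early myoblasts, was the lowest in level per coding length of the 4 myogenic helix-loop-helix genes, with 2.81, 3.71, 3.003, 3.06 and 2.82 CPM in WT, 3.45, 2.23, 2.83, 1.95 and 3.35 CPM in HET and 2.46, 1.99, 2.85, 1.44 and 2.38 CPM in KO. Among KO columns only replicate 3 reached the WT range. The fitted log2 fold change was -0.47 in KO vs WT (SE 0.20, unadjusted p = 0.0289, adjusted p = 0.212, edgeR), and -0.39 (adjusted p = 0.386) without WT replicate 2. Myog, by contrast, was the most abundant of them per coding length (104 CPM per kb against 3.52 for Myf5), at 76.5 ± 14.5 CPM in WT, 74.6 ± 12.9 in HET and 57.7 ± 24.8 in KO (SD, n = 5 each).

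The acetylcholine receptor of the nerve-muscle synapse was represented by its alpha subunit, Chrna1, and its fetal gamma subunit, Chrng, which the adult epsilon subunit replaces as the synapse matures. Chrng was at 21.2, 24.2, 21.2, 25.1 and 20.4 CPM in WT, at 24.4, 21.6, 16.5, 14.6 and 25.4 CPM in HET and at 13.0, 8.15, 23.8, 7.71 and 17.0 CPM in KO. Of the KO columns 4 lay below the WT range, and replicate 3 lay inside it. The fitted log2 fold change was -0.69 in KO vs WT (SE 0.26, unadjusted p = 0.0175, adjusted p = 0.178) and -0.56 in KO vs HET (SE 0.26, adjusted p = 0.303, edgeR). Without KO replicate 3 it was -0.97 in KO vs WT with an adjusted p of 0.0604, short of the fold threshold, and without WT replicate 2 it was -0.66 (adjusted p = 0.301). Leaving out a low KO column made it smaller: -0.55 (adjusted p = 0.271) without replicate 2 and -0.54 (adjusted p = 0.337, edgeR) without replicate 4. Chrna1 was at 15.5 ± 2.46 CPM in WT, 13.9 ± 2.67 in HET and 12.7 ± 4.37 in KO (SD, n = 5 each), with a fitted log2 fold change of -0.29 in KO vs WT (adjusted p = 0.443, edgeR).

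The light chains of fast and fetal muscle were abundant. By edgeR 0 of them were called in KO vs WT, HET vs WT and KO vs HET, beside 0.322%, 0.0% and 0.181% of all genes. Mylpf, the fast regulatory light chain, was at 2506 ± 688 CPM in WT, 2569 ± 262 in HET and 2192 ± 495 in KO, and Myl1, the fast essential light chain, was at 1066 ± 280, 1098 ± 104 and 981 ± 221 CPM (SD, n = 5 each). Myl4, the embryonic essential light chain, was at 310 ± 63.2, 287 ± 39.6 and 224 ± 92.8 CPM, with a fitted log2 fold change of -0.47 in KO vs WT (SE 0.24, adjusted p = 0.289, edgeR). Per coding length Myl4 made up 22.4 ± 1.39% of Myl4 plus Myl1 in WT, 20.3 ± 1.90% in HET and 17.7 ± 3.39% in KO. KO replicates 1, 2 and 4 were at 15.1%, 15.5% and 15.3%, below the WT range of 20.8% to 24.2%, while KO replicates 3 and 5 were at 20.5% and 22.2%.

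Of the 2 sarcomeric actins, 0 were called by edgeR in KO vs WT, HET vs WT and KO vs HET, beside 0.322%, 0.0% and 0.181% of all genes. Acta1 had the highest level per coding length of the 40 members (4880 CPM per kb), followed by Mylpf (4778). Acta1 was at 5559, 7704, 6536, 4157 and 4314 CPM in WT, at 6845, 5718, 5423, 4491 and 5049 CPM in HET and at 6622, 3254, 6430, 4445 and 6245 CPM in KO. Its order across columns was nearly that of the summed level, and its fitted log2 fold change in KO vs WT was -0.07 (SE 0.21, adjusted p = 0.880, edgeR), and 0.07 (adjusted p = 0.885) without WT replicate 2. Actc1, the cardiac actin that fetal skeletal muscle also makes, was 21.03 ± 3.28% of the 2 actins per coding length in WT, 20.4 ± 2.12% in HET and 18.8 ± 2.20% in KO (SD, n = 5 each).

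The troponins, which make contraction depend on calcium, showed fast forms above slow forms per coding length for the I and T subunits. For the C subunit the counts ran the other way. That rests on fast Tnnc2 with 177 counts in all, a gene overlapped on the opposite strand, as described below. Slow Tnni1 was 15.7 ± 2.84% of Tnni1 plus fast Tnni2 in WT, 15.4 ± 1.76% in HET and 12.8 ± 2.65% in KO, and slow Tnnt1 was 11.1 ± 4.83%, 10.2 ± 2.06% and 9.05 ± 1.96% of Tnnt1 plus fast Tnnt3 (SD, n = 5 each). WT replicate 4, the WT column with high Myh7, was the highest of 15 on both measures, at 19.9% and 19.2%. In KO vs WT the fitted log2 fold changes were -0.46 for Tnnc1, -0.41 for Tnni1, -0.33 for Tnnt1, -0.18 for Tnni2 and -0.09 for Tnnt3, with adjusted p of 0.338 or above (edgeR).

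Tnnc2, the calcium-binding subunit of fast troponin, was out of step with its partners. Its level per coding length was 0.973 CPM per kb, against 1555 for Tnni2, 1811 for Tnnt3 and 156 for the slow form Tnnc1, and its CPM ranged from 0.182 to 0.762 over the 15 columns. In the GENCODE vM21 annotation 74.0% of the exon bases of Tnnc2 are overlapped by genes on the opposite strand, among them Ube2c, which was at a mean of 67.9 CPM. The strand setting of the authors' counting is not given in the sources used here, and the part of this overlap in the low count was not tested. Differences between genotypes in Tnnc2 therefore rest on few counts, 4 in the column with the fewest.

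The scaffold of the sarcomere comprised Actn2 and Actn3 of the Z-disc, the giant proteins Ttn and Neb, the myosin binding proteins Mybpc1 (slow) and Mybpc2 (fast), the intermediate filament Des and the titin cap Tcap. Of these 8, 4 had fitted values above 0 and 4 below 0 in KO vs WT, from -0.35 for Ttn to 0.88 for Actn3. Des was at 1065 ± 214 CPM in WT, 1007 ± 201 in HET and 920 ± 296 in KO, and Mybpc1 at 838 ± 138, 790 ± 153 and 849 ± 268 CPM (SD, n = 5 each). As a percentage of Actn2 plus Actn3 per coding length, Actn3 was 5.70 ± 3.07 in WT, 7.80 ± 2.14 in HET and 12.5 ± 6.52 in KO, with KO replicates 1, 2 and 4 at 15.2, 15.7 and 20.1 and the other 12 columns between 2.10 and 10.2. KO replicates 1, 2 and 4 were also the 3 lowest columns for the Myl4 percentage.

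Calcium handling and energy genes had small fitted differences. By edgeR 0 of these 6 were called in KO vs WT, HET vs WT and KO vs HET, beside 0.322%, 0.0% and 0.181% of all genes. Ryr1 (the calcium release channel), Atp2a1 (the calcium pump of fast fibers) and Casq1 (the calcium store protein) had fitted log2 fold changes of -0.03, 0.05 and 0.04 in KO vs WT. Ckm (muscle creatine kinase), Eno3 (muscle enolase) and Pygm had -0.10, -0.16 and -0.05, and in HET vs WT all 3 were between 0.00 and 0.02. The 95% intervals in KO vs WT reached from -0.56 (Eno3) to 0.58 (Casq1) over these 6 genes. Their adjusted p was 0.649 or above in KO vs WT and 0.9998 in HET vs WT (edgeR).

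A further 83 muscle genes were listed for the same tissue, of which Cox7a1 and Cox8b are also in the brown fat list. Of the 83, 82 were in the table and 81 were tested, and 0 were called in each of the 3 comparisons by edgeR, beside 0.322%, 0.0% and 0.181% of all genes. An unadjusted p below 0.05 was found for 3, 0 and 2 of them, beside 19.3%, 1.58% and 16.0% of all genes. Their median log2 fold change was -0.15 in KO vs WT, -0.05 in HET vs WT and -0.13 in KO vs HET, with 64, 57 and 61 of 81 below 0. Without Cox7a1 and Cox8b the medians were -0.16, -0.05 and -0.14. Of the genes of the muscle membrane and nerve-muscle junction 13 were tested, and 13 were below 0 in KO vs WT (median -0.27), 11 in HET vs WT (median -0.08) and 12 in KO vs HET (median -0.20), beside 51.4%, 49.1% and 50.7% of all genes. Muscle genes varied largely together across columns, so such counts are not of independent genes. Over the 40 members the KO vs WT median was -0.12, and -0.003 without KO replicate 2. The like value for these 13 is not given here. The smallest p of the 13 in KO vs WT belonged to Chrnd, the delta subunit of the acetylcholine receptor. It was at 23.6 ± 3.71 CPM in WT, 21.3 ± 5.36 in HET and 16.0 ± 6.87 in KO (SD, n = 5 each), with a log2 fold change of -0.57 (adjusted p = 0.243, edgeR). KO replicates 1, 2 and 4 were at 14.7, 8.89 and 10.02 CPM, below the WT range of 17.6 to 27.4, and KO replicates 3 and 5 were at 23.1 CPM, inside it.

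Ankrd23, a stretch-responsive ankyrin repeat gene of the sarcomere, had the smallest p of the 81. It was at 3.54, 4.09, 3.76, 4.69 and 3.32 CPM in WT, at 4.13, 4.91, 3.86, 4.42 and 3.78 CPM in HET and at 1.86, 2.80, 1.96, 3.08 and 2.95 CPM in KO. All 5 KO columns lay below all WT and HET columns, which held for one direction or the other in 3.37% of all genes in KO vs WT. The log2 fold change was -0.63 in KO vs WT (SE 0.16, adjusted p = 0.102) and -0.74 in KO vs HET (SE 0.16, adjusted p = 0.0993, edgeR), so it passed the p threshold in the second comparison and in neither the fold threshold.

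Mb, the myoglobin that stores oxygen in slow and oxidative fibers, was high in some of the columns where Myl2 and Myh2 were high. It was at 0.873, 1.28, 3.86, 0.473 and 0.755 CPM in WT, at 1.11, 0.818, 3.75, 0.846 and 0.574 CPM in HET and at 0.842, 0.774, 4.21, 19.5 and 1.00 CPM in KO. WT replicate 3, HET replicate 3 and KO replicates 3 and 4 stood above the other 11 columns, the same 4 columns that were highest for Myl2 and for the brown fat sum given above. The part of brown fat in these values was not tested. Its log2 fold change in KO vs WT was 1.80 (adjusted p = 0.304, edgeR).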

How the data were processed

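RNA was isolated from flash-frozen E18.5 skin, enriched for poly(A) RNA and made into directional libraries, per the labels. The deposited values are raw counts per gene symbol and library. The submitters' processing notes name STAR, HTSeq and the build hg19, a human build, although the symbols are of mouse. Versions, annotation and strand setting are not given in the sources used here. Samples were grouped by the genotype label. Libraries with the same title number and genotype were summed, filtered with filterByExpr (17094 of 54087 symbols, 99.9% of counts), scaled by TMM and tested in 1 fit of the 3 genotypes by edgeR 4.0.16 (quasi-likelihood, R 4.3.3) with robust dispersions and Benjamini-Hochberg adjustment over all genes tested. Alternatives used DESeq2 1.42.0, limma-voom (limma 3.58.1), RLE factors, TMM without muscle genes, no filter, each title series alone, WT replicate 2 as 2 columns and each column left out. The fits were tested on simulated counts. Levels per length used the longest coding sequence in GENCODE vM21 (GRCm38). Correlations used log2(CPM + 1) and permutation tests (100000 resamples, two-sided). All 40 members are accounted for by role, and the other gene lists are given by counts and the gene with the smallest p. The members and lists were chosen with earlier results of these data known. Depth limits precision as counting error only, and no count came from molecular identifiers.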

Additional observations from a re-analysis of the deposited data

Results flagged for a closer look

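Single columns that stood far from the other 4 of their genotype were sought with Dixon's ratio (the gap to the nearest column over the whole range, above 0.71) in 162 groups of 5 columns, where chance alone gives about 8.1. There were 7. Myh7 in WT had a ratio of 0.851, with WT replicate 4 at 63.5 CPM and the next column at 15.3, and its share of myosin heavy chain in WT had 0.810, at 1.58% against 0.41%. Myl2 in WT had 0.975, with WT replicate 3 at 8.03 CPM against 0.203, and Myl2 in HET had 0.714, with HET replicate 3 at 3.79 CPM against 1.11. The Myh2 share of myosin heavy chain had 0.789 in WT (replicate 3, 0.056% against 0.026%) and 0.767 in HET (replicate 3, 0.058% against 0.026%). Myf5 in WT had 0.729, with replicate 2, whose libraries did not match, at 3.71 CPM against 3.06.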

How the results depend on the processing

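Over 24 alternatives, 1 of them (without KO replicate 4 and HET replicate 3 together) chosen after seeing the data, the count of members called lower was 0 in each comparison and the count called higher was 0 in HET vs WT. The count called higher was 1 (Myh2) with DESeq2 in KO vs WT (log2 fold change 1.77, adjusted p = 0.0889) and in KO vs HET (1.89, adjusted p = 0.0909), and ranged from 0 to 1 over the columns left out, with Myh2 called without KO replicate 5 in KO vs WT (1.95, adjusted p = 0.0741) and in KO vs HET (2.09, adjusted p = 0.0875). Of all genes, the main fit called 0.322% in KO vs WT, 0.0% in HET vs WT and 0.181% in KO vs HET. DESeq2 called 1.14%, 0.0% and 0.772%. The shares with columns left out are not given here. Over the alternatives the adjusted p of Myh2 ranged from 0.0741 to 0.668 in KO vs WT. Uncalled fold changes changed sign in 43 of 959 values in KO vs WT, 97 in HET vs WT and 53 in KO vs HET. The r of Myh8 with Pax7 passed 0.05 in the full set but not without HET replicate 1 (0.62, adjusted permutation p = 0.0564), without KO replicate 2 (0.57, adjusted permutation p = 0.114) or in series 1 alone (0.71, adjusted permutation p = 0.0794). The r with Myog passed without KO replicate 1 (0.63, adjusted permutation p = 0.0382). Over the columns left out, r ranged from 0.57 to 0.78 with Pax7 and from 0.26 to 0.63 with Myog. The cause was not tested. No paired analysis was run, since samples were known by genotype and title number and not by litter. The part of litter in the spread between columns was not tested. Members with few counts (Tnnc2, Myh2, Myh4, Myl2) hold counting error on top of the spread between columns. Their biological coefficients of variation were 0.266, 0.645, 0.424 and 1.71. The part of depth in their values was not tested.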
